A study of Mus musculus with 8 samples.

Results

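Lysosomal enzymes and membrane proteins were examined in bulk RNA-seq of mouse splenic CD8+ T cells, as a set of 33 genes chosen by name: soluble hydrolases and their cofactors, proteins of the lysosomal membrane, and *Tfeb* and *Tfe3*, which encode transcription factors of lysosomal genes. All 33 were found by symbol among the 22520 genes and assembled transcripts of the table, and 31 were among the 10666 that were tested. The cells had been purified by negative selection and kept under anti-CD3 and anti-CD28 stimulation with IL-2 until harvest on day 6, a culture that serves as a model of chronic T cell stimulation outside the animal, with no tumor or antigen-presenting cells. From day 3, 4 cultures received DADA (diisopropylamine dichloroacetate, an inhibitor of pyruvate dehydrogenase kinase) at 40 µM and 4 received the same volume of its solvent DMSO. The cells of both groups carried no named allele, and the genotype field of the labels says only control or model. The age, sex and strain of the donor animals are not in the labels.

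The lysosome is the acidic organelle in which cells break down proteins, glycans and lipids that arrive from the surface or by autophagy. Its hydrolases are made in the endoplasmic reticulum and carried there mostly by mannose 6-phosphate receptors, a V-type ATPase acidifies the lumen, and a coat of heavily glycosylated membrane proteins protects the limiting membrane. In cytotoxic T cells the lytic granule is a secretory lysosome, which holds perforin and granzymes beside lysosomal cathepsins and carries LAMP1 and CD63 to the surface when it fuses. TFEB and TFE3 bind an E-box in the promoters of many lysosomal genes and are regulated largely by phosphorylation, which keeps them in the cytosol while mTORC1 is active.

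The values are FPKM (fragments scaled to transcript length and to library size), so that genes of a library can be set beside each other. They do not add up to the same total in every library: the sums were 450473 to 456939 with DMSO and 438299 to 449480 with DADA. Comparisons between libraries carry this difference, and fits with the same total in every library are given at the end. The deposited files give no read totals, and the steps between low FPKM values put the depth at an estimated 13960000 to 16760000 fragments with DMSO and 15310000 to 18920000 with DADA. Correlations of log2(FPKM + 1) over the tested genes were 0.993 to 0.995 between libraries of a group and 0.958 to 0.961 between groups, and no library stood apart from its group. All 8 markers of CD8+ T cells were above 1 FPKM. Macrophages and neutrophils are rich in lysosomes, so their markers were read beside these genes: the highest value of any of 12 macrophage and monocyte markers in any library was 0.215 FPKM, 6 of them (*Csf1r*, *Adgre1*, *C1qa*, *C1qb*, *C1qc* and *Cd163*) were listed at 0 throughout, and the summed level of the list was 0.0585 to 0.146 FPKM with DMSO and 0.142 to 0.421 FPKM with DADA. Of the macrophage and monocyte markers, *Mpeg1* was at 0 to 0.0624 FPKM with DMSO and at 0.0891 to 0.215 FPKM with DADA. *Itgam* was at 0 to 0.0173 FPKM with DMSO and at 0.0193 to 0.0407 FPKM with DADA. Both were higher with DADA without overlap, while the groups of *Lyz2*, *Cd14*, *Fcgr1* and *Mertk* overlapped. The highest value of any of 6 neutrophil markers was 0.313 FPKM. In the lists of other cell types, 3 markers were above 1 FPKM: *Zbtb46* of the dendritic cell list, which went from 3.64 to 4.56 FPKM with DMSO to 1.72 to 2.36 FPKM with DADA (-0.77, limma, adjusted p = 1.43e-05), *Eomes* of the NK list, which CD8+ T cells also express, from 13.7 ± 0.405 to 10.5 ± 0.523 FPKM (-0.36, limma, adjusted p = 2.94e-05), and *Cd79b* of the B cell list, which was not called, at 3.09 ± 0.469 and 2.69 ± 0.338 FPKM. *Flt3* and *Xcr1* of the dendritic cell list were higher with DADA, from 0 to 0.0218 to 0.0464 FPKM and from 0 to 0.0454 to 0.0750 to 0.131 FPKM. *Itgax* was lower with overlapping groups, from 0.0697 to 0.211 to 0.042 to 0.0773 FPKM, and *Clec9a* and *Siglech* were at or near 0. *Klrb1c* of the NK list was higher with DADA, reaching 0.249 FPKM, while the groups of *Ncr1* and *Klra8* overlapped. In bulk RNA, fewer cells of a type and less RNA per cell cannot be told apart.

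The E-box that TFEB and TFE3 bind has the core CACGTG, and its extended form TCACGTGA is the centre of the CLEAR element of lysosomal genes. Both are palindromes, so they read the same on both strands, and every match to the longer one is also a match to the shorter. Promoters were taken from RefSeq for the mouse build GRCm38.p6 as 250 bases before to 50 after each annotated start. Of the 33 genes, 28 had an entry, and the genes without one were *Npc1*, *Ctsb*, *Ctsh*, *Ctsw* and *Asah1*. The 150 bases before the start are shown 5′ to 3′ on the gene's strand for the 4 genes with the extended form (*Mcoln1*, *Ctsa*, *Cln3* and *Ctsd*), for *Lamp1*, which has the most copies of the core, and for *Npc2*, the gene with the largest rise, in which neither was found. Capitals mark CACGTG and TCACGTGA. The windows are chr8:3500369-3500518 on the plus strand for *Mcoln1*, chr2:164833623-164833772 on the plus strand for *Ctsa*, chr7:126583237-126583386 on the minus strand for *Cln3*, chr7:142387828-142387977 on the minus strand for *Ctsd*, chr8:13159011-13159160 on the plus strand for *Lamp1* and chr12:84773113-84773262 on the minus strand for *Npc2*.
Mcoln1: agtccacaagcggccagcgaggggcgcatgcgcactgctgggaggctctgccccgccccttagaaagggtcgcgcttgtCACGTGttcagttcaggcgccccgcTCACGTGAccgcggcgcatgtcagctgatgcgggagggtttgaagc
Ctsa: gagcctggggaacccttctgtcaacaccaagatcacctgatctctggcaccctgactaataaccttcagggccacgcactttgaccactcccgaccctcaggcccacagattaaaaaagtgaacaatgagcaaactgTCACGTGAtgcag
Cln3: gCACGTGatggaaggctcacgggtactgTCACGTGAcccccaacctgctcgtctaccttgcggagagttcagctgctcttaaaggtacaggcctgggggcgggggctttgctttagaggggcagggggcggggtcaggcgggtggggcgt
Ctsd: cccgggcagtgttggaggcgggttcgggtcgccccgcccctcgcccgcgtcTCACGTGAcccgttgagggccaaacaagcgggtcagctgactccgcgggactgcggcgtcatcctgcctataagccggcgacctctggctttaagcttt
Lamp1: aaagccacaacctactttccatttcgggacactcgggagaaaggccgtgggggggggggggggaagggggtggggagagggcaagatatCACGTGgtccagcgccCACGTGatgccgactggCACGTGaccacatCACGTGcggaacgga
Npc2: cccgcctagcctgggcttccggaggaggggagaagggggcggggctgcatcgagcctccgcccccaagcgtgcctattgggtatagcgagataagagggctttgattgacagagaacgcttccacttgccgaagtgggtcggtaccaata

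To ask how DADA changed the lysosomal genes, the groups were compared with limma on log2(FPKM + 1), with Benjamini-Hochberg adjustment over all 10666 tested genes and a call at an adjusted p under 0.05. Of the 31 lysosomal genes tested, 19 rose with DADA, 6 fell and 6 were not called. Over all tested genes, 66.2% were called, 30.9% as higher and 35.3% as lower, against 80.65%, 61.29% and 19.35% of the lysosomal genes. Counts by role and by list below are to be read beside these shares over all tested genes. The median log2 fold change was 0.17 for the lysosomal genes, with a range from -0.56 to 0.99, and -0.02 for all tested genes. The 4 values of each group did not overlap in 24 of the 31, or 77.42%, against 60.6% of all tested genes. Most changes were small: the median size was 0.28 on the log2 scale among called lysosomal genes and 0.31 among all called genes, and 5 lysosomal genes rose by at least 0.5 and 1 fell by as much, where 9.87% and 5.86% of all tested genes did. Fold changes throughout are on the log2(FPKM + 1) scale, which understates the change of low genes, and an exact permutation test over the 70 assignments of 4 and 4 libraries cannot give a p below 0.0286.

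**Figure D1:**
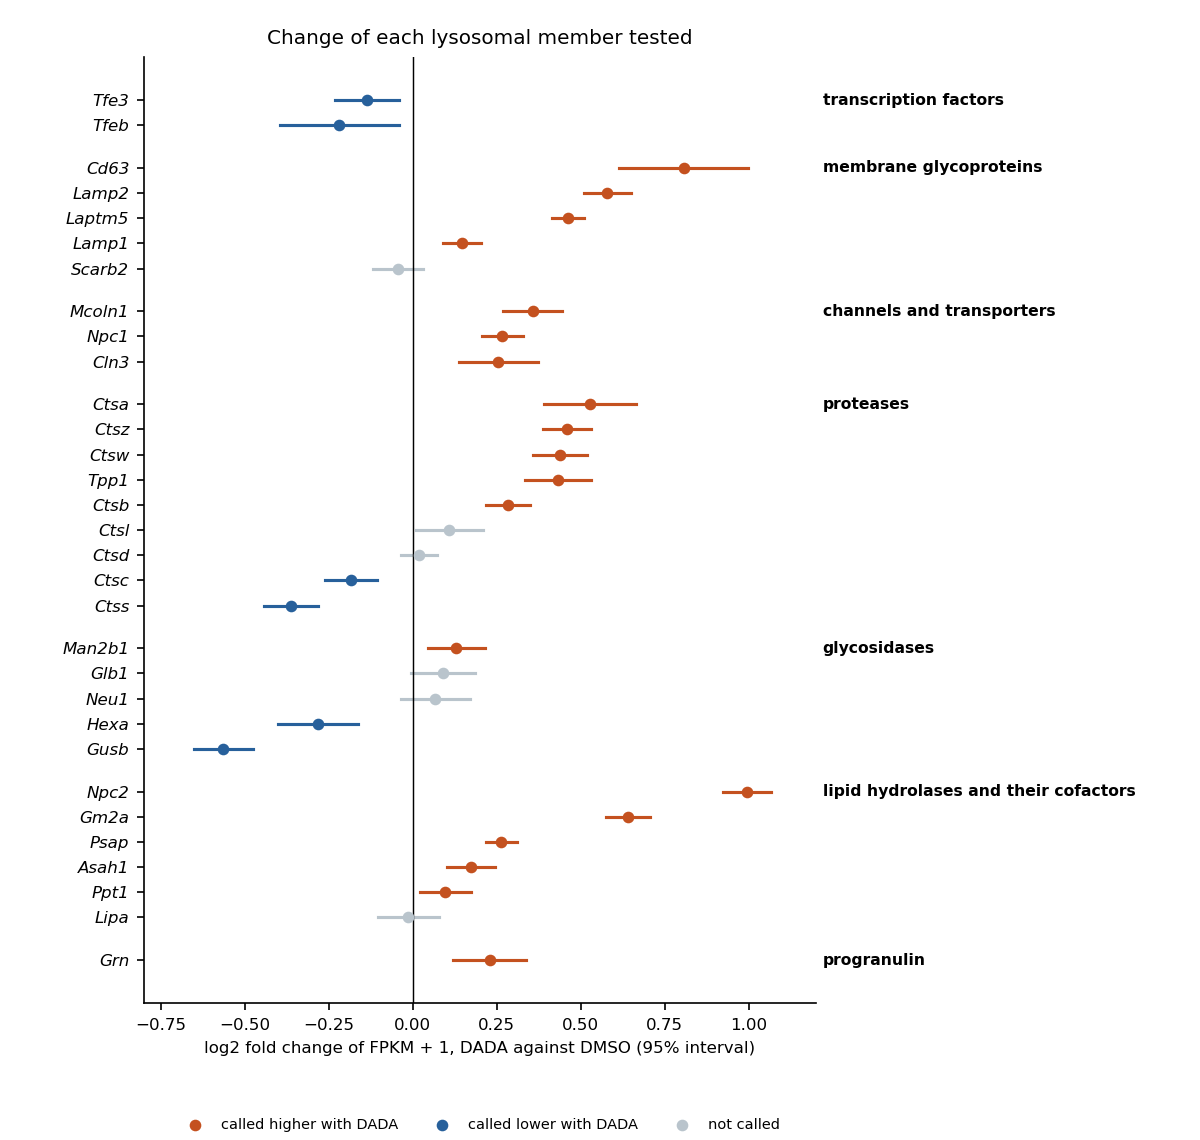
Log2 fold change of FPKM + 1, DADA against DMSO, for the 31 lysosomal genes tested, grouped by role; points are estimates, bars are 95% intervals, and colors mark genes called higher, called lower or not called by limma. The 19 genes called higher are spread over every role except the transcription factors, and *Npc2* (0.99) and *Gusb* (-0.56) mark the ends of the range.

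Together the 33 genes gave 980.8 to 999.9 FPKM with DMSO and 1207 to 1236 FPKM with DADA, which was 0.218% to 0.219% and 0.274% to 0.275% of the summed FPKM of a library. *Laptm5* alone made up much of this sum, and without it the totals were 735 to 747 FPKM and 868 to 884 FPKM. The groups were apart in either sum. The total moved up for the membrane glycoproteins, from 351 ± 1.78 to 466.5 ± 5.75 FPKM (mean ± SD, n = 4 per group), for the lipid hydrolases and their cofactors, from 183 ± 0.952 to 254 ± 3.23 FPKM, and for the proteases, from 311 ± 4.45 to 351 ± 4.06 FPKM. For the glycosidases it moved down, from 81.1 ± 1.12 to 73.6 ± 0.872 FPKM. Single genes carried much of some of these totals. *Laptm5* went from a mean of 249.9 to 344.7 FPKM among the membrane glycoproteins. *Npc2*, a cholesterol carrier counted with the lipid hydrolases and cofactors, went from 40.97 to 82.53 FPKM. Among the glycosidases *Gusb* went from 25.15 to 16.67 FPKM, while the means of *Man2b1*, *Glb1* and *Neu1* were higher with DADA.

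Both transcription factors of the set fell. *Tfeb* (ENSMUSG00000023990) was at 4.57, 5.20, 4.36 and 4.46 FPKM with DMSO and at 4.37, 4.16, 3.67 and 3.26 FPKM with DADA. Its groups overlapped at a single point, the highest DADA library lying just above the lowest DMSO library, and 3 of 4 DADA libraries lay below every DMSO library. The log2 fold change was -0.22 (SE 0.0793, limma, adjusted p = 0.0329), and the exact permutation p was 0.0571. This call depended on single libraries: the adjusted p was 0.0548 without DMSO library 1, 0.0906 without DMSO library 2, 0.0769 without DADA library 3 and 0.0843 without DADA library 4, with the direction kept. *Tfe3* (ENSMUSG00000000134), the more abundant of the pair, was at 11.6, 13.1, 12.5 and 11.8 FPKM with DMSO and at 10.9, 11.3, 10.7 and 11.1 FPKM with DADA. The groups were apart by a narrow gap, with a log2 change of -0.14 (limma, adjusted p = 0.0162).

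Of the 5 membrane glycoproteins, 4 rose and none fell. *Cd63* (ENSMUSG00000025351), a tetraspanin of late endosomes, lysosomes and granules, was at 4.19, 4.50, 4.88 and 5.75 FPKM with DMSO and at 10.2, 8.61, 9.51 and 8.38 FPKM with DADA. Every DADA library was well above every DMSO library, although *Cd63* was also among the most variable of the genes, and the log2 fold change was 0.81 (SE 0.0862, limma, adjusted p = 1.79e-05). The mouse genome holds a pseudogene, *Cd63-ps*, whose annotated sequence is 98.0% identical over 858 bases, so that part of the reads may be shared. *Lamp2* (ENSMUSG00000016534), a receptor of chaperone-mediated autophagy as well as a coat protein, was at 19.5, 18.7, 20.0 and 19.1 FPKM with DMSO and at 29.4, 28.5, 29.1 and 30.4 FPKM with DADA. The groups were tight and far apart, and the log2 fold change was 0.58 (SE 0.0314, limma, adjusted p = 1.18e-07).

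*Lamp1* (ENSMUSG00000031447), the other major coat protein and a surface marker of degranulation, changed much less. Its values were 62.1, 59.8, 62.9 and 63.8 FPKM with DMSO and 68.2, 69.6, 67.9 and 69.8 FPKM with DADA, which did not overlap, and its log2 fold change was 0.15 (SE 0.0254, limma, adjusted p = 5.41e-04). The ratio of *Lamp2* to *Lamp1* thereby went from 0.2995 to 0.318 with DMSO to 0.41 to 0.435 with DADA. *Laptm5* (ENSMUSG00000028581), a lysosomal membrane protein of blood cells that takes part in degradation of the T cell receptor, was the most abundant of the 33 genes, at 252, 254, 247 and 246 FPKM with DMSO and 344, 352, 339 and 345 FPKM with DADA. The groups were again far apart relative to their spread, with a log2 fold change of 0.46 (SE 0.0209, limma, adjusted p = 3.29e-08). *Scarb2*, which encodes the lysosomal membrane protein LIMP-2, was not called, with 14.9 ± 0.409 FPKM against 14.4 ± 0.380 FPKM and a log2 fold change of -0.04 (95% interval -0.12 to 0.03).

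All 3 channels and transporters rose. *Mcoln1* (ENSMUSG00000004567), which encodes the lysosomal calcium channel TRPML1, was at 9.98, 9.24, 9.59 and 9.40 FPKM with DMSO and at 12.6, 12.5, 13.0 and 11.9 FPKM with DADA. Its groups were apart, and the log2 fold change was 0.36 (SE 0.0390, limma, adjusted p = 2.09e-05). *Npc1*, the membrane protein that exports cholesterol from the lysosome, went from 16.1 ± 0.116 to 19.6 ± 0.376 FPKM, a log2 change of 0.27 (limma, adjusted p = 1.25e-05). *Cln3*, a lysosomal membrane protein mutated in juvenile Batten disease, went from 10.2 ± 0.493 to 12.3 ± 0.853 FPKM, a log2 change of 0.25 (limma, adjusted p = 0.00178).

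Among the 11 proteases, 9 were tested, of which 5 rose, 2 fell and 2 were not called. *Ctsa* (ENSMUSG00000017760), a serine carboxypeptidase that also shields β-galactosidase and neuraminidase 1 in a complex, was at 14.0, 13.1, 13.3 and 12.3 FPKM with DMSO and at 18.6, 20.4, 21.4 and 17.5 FPKM with DADA. The DADA libraries were more spread out than the DMSO libraries and all lay above them, and the log2 fold change was 0.53 (SE 0.0613, limma, adjusted p = 3.26e-05). Its partners in that complex were not called. *Glb1* (β-galactosidase) averaged 12.9 ± 0.549 FPKM in the solvent and 13.8 ± 0.629 FPKM with DADA (log2 fold change 0.09, limma, adjusted p = 0.0861), although its groups did not overlap (exact permutation p = 0.0286). *Neu1* (neuraminidase 1) was at 10.7 ± 0.609 and 11.2 ± 0.398 FPKM (log2 fold change 0.07, 95% interval -0.03 to 0.17). The ratio of *Ctsa* to *Neu1* was 1.17 to 1.34 with DMSO and 1.60 to 1.97 with DADA, and that of *Ctsa* to *Glb1* was 0.946 to 1.16 and 1.27 to 1.59.

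The other 4 proteases that rose did so by similar amounts, with log2 fold changes from 0.28 to 0.46. *Ctsz*, a cysteine carboxypeptidase, went from 54.9 ± 0.962 to 75.9 ± 3.25 FPKM (0.46, limma, adjusted p = 7.30e-07). *Ctsw*, a papain-type cathepsin expressed mainly in CD8+ T and NK cells, went from 39.4 ± 1.38 to 53.8 ± 2.23 FPKM (0.44, limma, adjusted p = 2.55e-06). *Tpp1*, an aminopeptidase that removes tripeptides, went from 10.2 ± 0.403 to 14.1 ± 0.695 FPKM (0.43, limma, adjusted p = 1.22e-05). The smallest of these rises was that of *Ctsb*, an abundant endopeptidase, from 21.2 ± 0.664 to 26.0 ± 0.268 FPKM (0.28, limma, adjusted p = 1.38e-05).

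The 2 proteases that fell have roles of their own in immune cells. *Ctsc* (ENSMUSG00000030560), the dipeptidyl peptidase that activates granzymes by trimming their N-terminus, was at 40.8, 43.2, 43.8 and 42.7 FPKM with DMSO and at 39.1, 35.4, 37.6 and 37.4 FPKM with DADA. The groups did not overlap, and the log2 fold change was -0.18 (SE 0.0348, limma, adjusted p = 9.61e-04). *Ctss* (ENSMUSG00000038642), a cathepsin best known for degrading the invariant chain in antigen-presenting cells, was at 30.8, 31.1, 30.8 and 29.1 FPKM with DMSO and at 22.9, 22.4, 24.2 and 24.3 FPKM with DADA. Here the gap between the groups was wider than the spread within either, with a log2 fold change of -0.36 (SE 0.0357, limma, adjusted p = 9.81e-06). *Ctsl*, another endopeptidase of the same family, was at 9.75 ± 0.460 and 10.6 ± 0.460 FPKM and just missed the threshold (0.11, 95% interval 0.01 to 0.21, limma, adjusted p = 0.0545), and its adjusted p was 0.0421 without DMSO library 2 and 0.0270 without DADA library 2. *Ctsd*, the aspartic protease and second most abundant gene of the set, was at 88.9 ± 2.13 and 90.05 ± 1.51 FPKM and was not called (0.02, 95% interval -0.04 to 0.07).

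**Figure D2:**
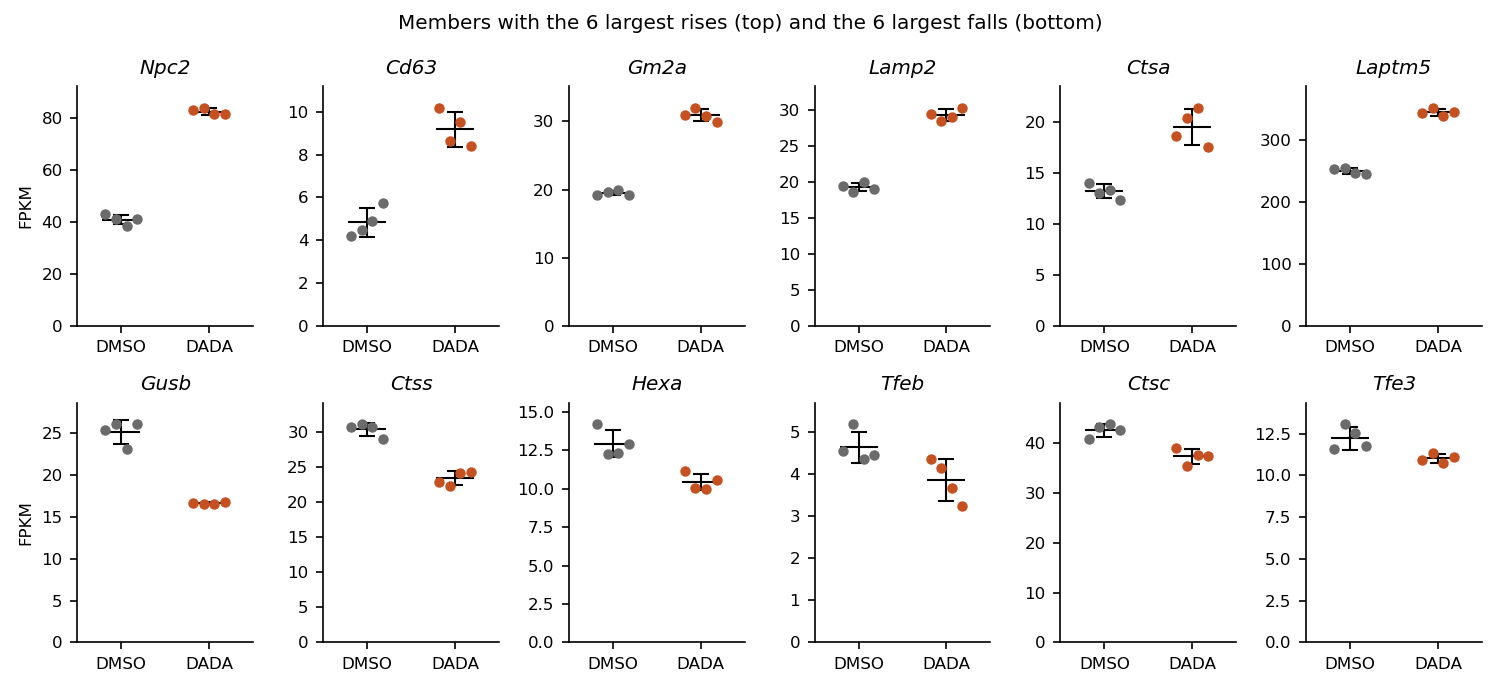
FPKM in each library for the 6 lysosomal genes with the largest called rise (top) and the 6 with the largest called fall (bottom); each point is a library, the long bar is the group mean and the whiskers are 1 SD (n = 4 per group, each axis starts at 0). The groups are apart for every gene shown except *Tfeb*, in which DADA library 1 at 4.37 FPKM lies just above DMSO library 3 at 4.36 FPKM.

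Both proteases that were not tested were barely detected. *Lgmn* (ENSMUSG00000021190), the asparaginyl endopeptidase legumain, was at 0.199, 0.346, 0.281 and 0.400 FPKM with DMSO and at 0.392, 0.305, 0.235 and 0.478 FPKM with DADA. The groups overlapped over most of their range (exact permutation p = 0.543). *Ctsh* (ENSMUSG00000032359), the aminopeptidase cathepsin H, was listed at 0 in all 4 DMSO libraries and in DADA libraries 2 and 3, and at 0.0621 and 0.0975 FPKM in DADA libraries 1 and 4. No fold change is given for it.

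The 5 glycosidases, which take sugars off glycoproteins and glycolipids, had 1 member higher, 2 lower and 2 not called. *Gusb* (ENSMUSG00000025534), β-glucuronidase, had the largest fall of the set, from 25.4, 26.1, 23.1 and 26.1 FPKM with DMSO to 16.6, 16.6, 16.6 and 16.8 FPKM with DADA. The DADA libraries were nearly identical and all lay well below the lowest DMSO library, and the log2 fold change was -0.56 (SE 0.0394, limma, adjusted p = 7.67e-07). *Hexa* (ENSMUSG00000025232), the α subunit of an enzyme that breaks down GM2 ganglioside, was at 14.2, 12.3, 12.3 and 12.9 FPKM with DMSO and at 11.2, 10.1, 10.0 and 10.6 FPKM with DADA. Its groups were apart, with a log2 fold change of -0.28 (SE 0.0527, limma, adjusted p = 8.93e-04). *Man2b1*, lysosomal α-mannosidase, was the glycosidase that rose, from 19.5 ± 0.633 to 21.4 ± 0.929 FPKM (0.13, limma, adjusted p = 0.0129), and its highest DMSO library (20.03 FPKM) and lowest DADA library (20.07 FPKM) nearly touched.

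Of the 6 lipid hydrolases and cofactors, 5 rose and 1 was not called. *Gm2a* (ENSMUSG00000000594), the activator protein that lifts GM2 ganglioside out of the membrane for its breakdown, rose from 19.2, 19.6, 19.9 and 19.2 FPKM with DMSO to 31.0, 32.0, 30.8 and 29.9 FPKM with DADA. Those groups were far apart, with a log2 fold change of 0.64 (SE 0.0291, limma, adjusted p = 3.36e-08).

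*Npc2* (ENSMUSG00000021242), the small soluble protein that hands cholesterol to NPC1, had the largest rise of all 33 genes, from 43.0, 41.1, 38.6 and 41.3 FPKM with DMSO to 83.0, 84.0, 81.4 and 81.6 FPKM with DADA. The lowest DADA library was far above the highest DMSO library, and the log2 fold change was 0.99 (SE 0.0321, limma, adjusted p = 2.62e-09). The ratio of *Npc2* to *Npc1* was 2.42 to 2.68 with DMSO and 4.06 to 4.31 with DADA. *Psap*, the precursor of the saposins that present sphingolipids to their hydrolases, went from 69.3 ± 0.990 to 83.3 ± 0.994 FPKM (0.26, limma, adjusted p = 1.94e-06). *Asah1*, acid ceramidase, went from 17.0 ± 0.555 to 19.3 ± 0.341 FPKM (0.17, limma, adjusted p = 8.25e-04).

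The smallest called change of the set was in *Ppt1*, a thioesterase that removes palmitate from proteins, which went from 24.9 ± 0.755 to 26.7 ± 0.971 FPKM (0.10, limma, adjusted p = 0.0300). Its groups overlapped (exact permutation p = 0.0857), and the adjusted p passed 0.05 when DMSO library 1 (0.0777), DMSO library 4 (0.0585), DADA library 1 (0.0814), DADA library 2 (0.0734) or DADA library 3 (0.0574) was left out. *Lipa*, the acid lipase of cholesteryl esters and triglycerides, was at 11.0 ± 0.462 and 10.9 ± 0.380 FPKM and was not called (-0.01, 95% interval -0.10 to 0.08). *Grn*, which encodes progranulin, a secreted and lysosomal protein that is cut into granulins, went from 12.2 ± 0.674 to 14.5 ± 0.732 FPKM (0.23, limma, adjusted p = 0.00194).

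The order of the genes by level changed in places. *Laptm5*, *Ctsd* and *Psap* were the most abundant in both groups, in that order. *Npc2* went from rank 7 with DMSO to rank 4 with DADA, where its values overlapped those of *Psap* above it. *Gm2a* went from rank 13 to rank 9 and *Lamp2* from rank 15 to rank 10, while *Gusb* went from rank 10 to rank 18, *Ctss* from rank 9 to rank 13 and *Hexa* from rank 20 to rank 29. Many of these ranks are not sharp, since 16 of the neighboring pairs in the order overlapped and 16 did not, with DMSO and with DADA alike, and *Npc2* with DMSO overlapped both of its neighbors, *Ctsc* and *Ctsw*. Within a gene the libraries were close: the median coefficient of variation of the tested genes was 3.34% with DMSO and 3.63% with DADA, and the highest were 14.0% and 12.9%.

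**Figure D3:**
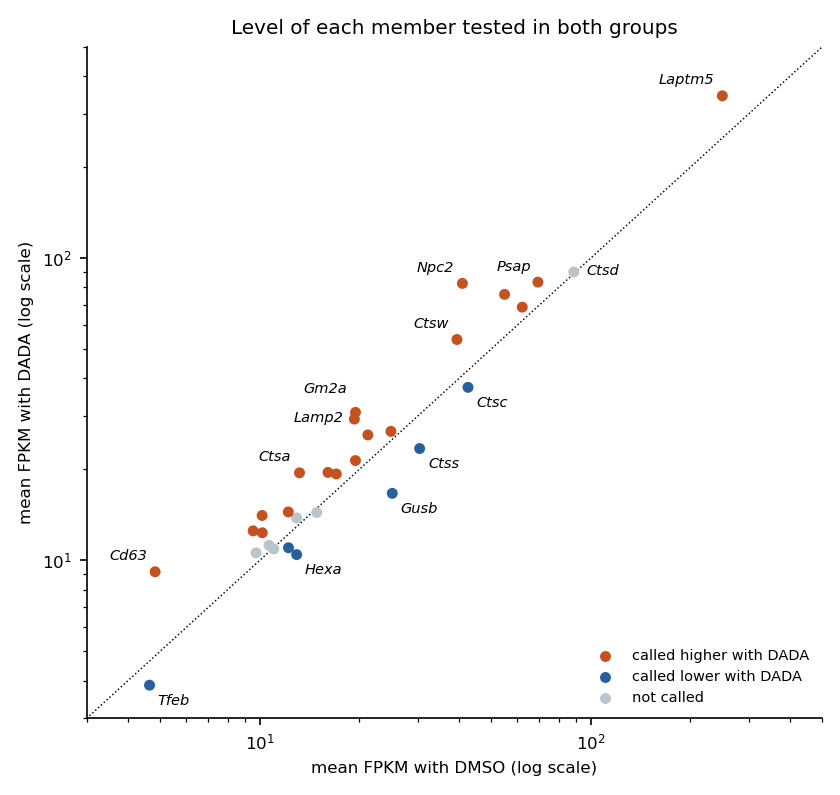
Mean FPKM with DADA (vertical) against mean FPKM with DMSO (horizontal) for the 31 lysosomal genes tested, both on log axes, with the dotted line marking equal levels and colors marking the limma call. *Npc2* (41.0 against 82.5 FPKM) and *Cd63* (4.83 against 9.17 FPKM) lie far above the line, and *Gusb* (25.1 against 16.7 FPKM) lies furthest below it.

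The core CACGTG was found in 8 of the 28 lysosomal genes with a RefSeq promoter, or 28.6%, against 12.1% of the 8216 tested genes with a promoter and 8.09% of all 27025 genes with one. A gene was counted when any of its windows held a match, and 6 of the 28 had several annotated starts. Counted by promoter, the core was in 8 of 35 windows of the lysosomal genes, or 22.9%, and in 7.15% of all 32851 windows of 300 bases. The extended form TCACGTGA was found in 4 of the 28, or 14.3%, against 2.53% of tested genes, 1.12% of all genes and 0.974% of all windows. Positions are those of the first base of CACGTG, also where it lies within TCACGTGA. As the sequences above show, *Lamp1* holds 4 copies of the core, 61, 45, 28 and 15 bases before the start. *Mcoln1* holds a core alone 71 bases before the start and a core within the extended form 45 bases before it. In *Ctsa* the core of an extended form lies 12 bases before the start and that of another 5 bases after it. *Cln3* has a core alone 149 bases before and a core within the extended form 121 bases before. *Ctsd* has a core alone 245 bases before, outside the printed window, and a core within the extended form 98 bases before. *Glb1*, *Lgmn* and *Ctsl* hold the core only. For *Ctsa*, *Cln3* and *Lgmn* the matches lie at entry 2 of the annotated starts, which is the window printed for *Ctsa* and *Cln3*, and no other window of these genes held a match.

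**Figure D4:**
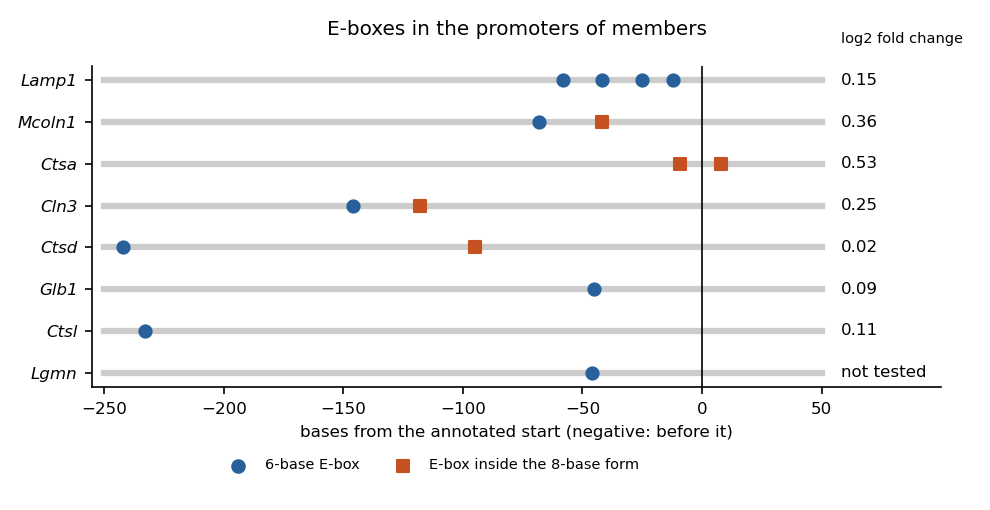
Position of each CACGTG match, in bases from the annotated start, in the RefSeq promoters of the 8 lysosomal genes that hold one; symbols distinguish the core alone from the core within TCACGTGA, and the numbers at the right are log2 fold changes. *Lamp1* has the most matches (4), and only *Ctsa* has a match after the start.

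The core was found both in genes that rose and in genes that were not called. Of the 15 genes with a promoter entry that rose, 4 held the core (*Lamp1*, *Mcoln1*, *Ctsa* and *Cln3*), as did none of the 6 that fell and 3 of the 6 that were not called (*Ctsd*, *Glb1* and *Ctsl*). *Npc2*, *Cd63*, *Gm2a*, *Lamp2* and *Laptm5*, with 5 of the 6 largest rises, held none in these windows. Across all tested genes with a promoter, those with the core were called higher in 31.8% of cases and lower in 38.0%, and those without it in 31.5% and 35.8%, and for the 208 genes with the extended form the shares were 35.1% and 26.9%. A match is a stretch of letters and not a bound site, and binding was not measured in these libraries.

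Other lysosomal genes, named in lists of their own, were compared in the same fit. Of 28 other lysosomal hydrolases tested, 12 rose, 6 fell and 10 were not called, with a median log2 fold change of 0.11, and the 64.29% called were close to the 66.2% of all tested genes. The largest rises were those of *Acp5*, tartrate-resistant acid phosphatase, from 8.24 ± 0.198 to 23.8 ± 0.780 FPKM (1.42, limma, adjusted p = 3.19e-10), and of *Smpd1*, acid sphingomyelinase, from 8.77 ± 0.376 to 23.8 ± 1.06 FPKM (1.35, limma, adjusted p = 2.06e-09). The largest falls were in *Sgsh* (sulfamidase) and *Idua* (α-iduronidase), which like *Gusb* act in glycosaminoglycan breakdown. *Sgsh* went from 2.05 ± 0.176 to 1.09 ± 0.141 FPKM (-0.55, limma, adjusted p = 7.13e-05) and *Idua* from 5.42 ± 0.315 to 4.14 ± 0.441 FPKM (-0.32, limma, adjusted p = 0.00203). *Galc*, the hydrolase of galactosylceramide, was picked after its values were seen, and rose by 1.33 on the log2 scale (limma, adjusted p = 1.31e-07). Saposins from *Psap*, which rose by 0.26, serve as its cofactors.

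Of 23 other lysosomal membrane proteins tested, 12 rose, 2 fell and 9 were not called, with a median of 0.12. That is 60.87% called, 52.17% higher and 8.696% lower, against 66.2%, 30.9% and 35.3% of all tested genes. *Abcb9*, a peptide transporter, rose by 0.79 (limma, adjusted p = 4.08e-08) and *Ctns*, the cystine exporter, by 0.70 (limma, adjusted p = 1.38e-06). *Mcoln2*, a relative of *Mcoln1*, went the other way, from 4.04 ± 0.166 to 2.90 ± 0.128 FPKM (-0.37, limma, adjusted p = 7.78e-05), and *Abca2*, a lipid transporter, fell by 0.20 (limma, adjusted p = 1.91e-04). Of 18 V-ATPase subunits tested, 9 rose, 3 fell and 6 were not called, with a median of 0.09, and 66.67% called were close to the share over all tested genes. The largest rises were in *Atp6v0b* and *Atp6v0d1*, with *Atp6v0b* going from 48.5 ± 1.76 to 88.2 ± 2.56 FPKM (0.85, limma, adjusted p = 8.55e-09) and *Atp6v0d1* at 0.39 (limma, adjusted p = 1.63e-07). The largest falls were in *Atp6v1g1* and *Atp6v1h*, with *Atp6v1g1* going from 84.7 ± 1.81 to 62.5 ± 2.62 FPKM (-0.43, limma, adjusted p = 1.15e-06) and *Atp6v1h* at -0.31 (limma, adjusted p = 5.60e-05).

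**Figure D5:**
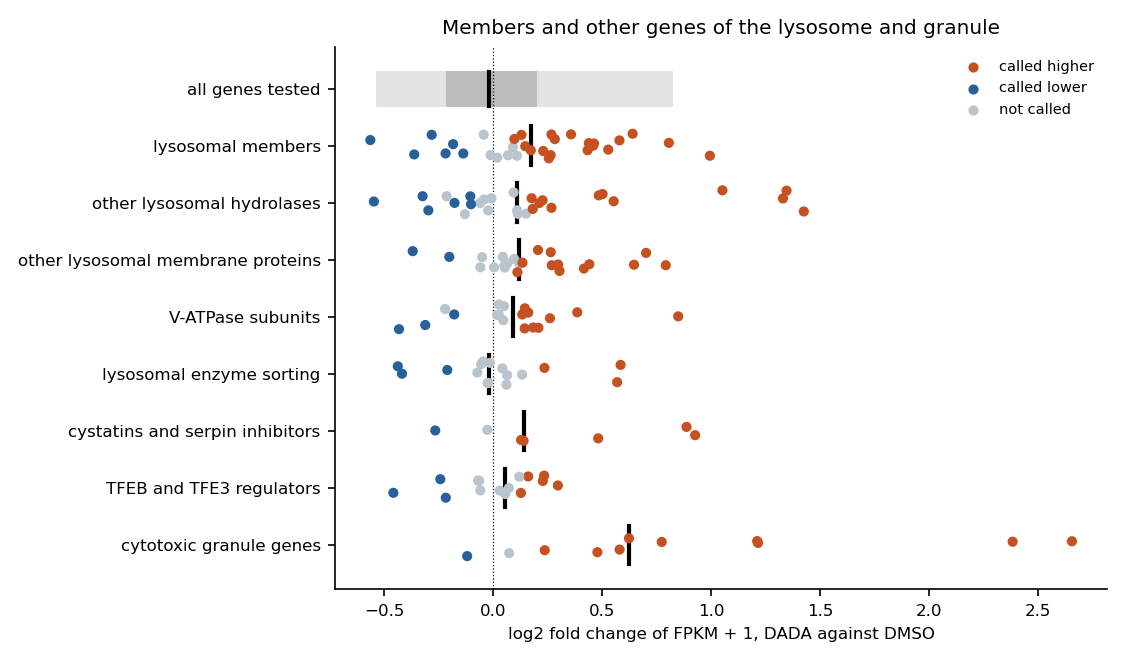
Log2 fold change of FPKM + 1, DADA against DMSO, for each tested gene of the lysosomal set and of 7 related lists; each point is a gene colored by its limma call, black bars are list medians, and the top row shows the 5th to 95th (light) and 25th to 75th (dark) percentiles of all 10666 tested genes. The median of the lysosomal set is 0.17, that of the cytotoxic granule genes is 0.62, and that of all tested genes is -0.02.

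The genes that bring hydrolases to the lysosome moved in both directions, with 3 of 16 tested higher, 3 lower and 10 not called, and a median of -0.02. That is 37.5% called and 18.75% in each direction, against 66.2% called, 30.9% higher and 35.3% lower over all tested genes. *Gnptab*, the enzyme that starts the mannose 6-phosphate tag, went from 26.9 ± 0.508 to 40.8 ± 1.74 FPKM (0.58, limma, adjusted p = 1.65e-07), and *Igf2r*, the large receptor of that tag, from 21.8 ± 0.618 to 32.7 ± 0.858 FPKM (0.57, limma, adjusted p = 1.14e-07). *Gga2*, an adaptor of the receptors, fell by 0.42 (limma, adjusted p = 5.12e-05). *Vps29*, a subunit of the retromer that recycles them, fell by 0.44 (limma, adjusted p = 0.0113) with overlapping groups. Of 15 tested regulators of TFEB and TFE3, 5 rose, 3 fell and 7 were not called, with a median of 0.06. That is 53.33% called and 33.33% called higher, against 66.2% and 30.9% of all tested genes. *Flcn* (folliculin), which with its partners lets mTORC1 phosphorylate both factors, rose by 0.30 (limma, adjusted p = 0.00115) and *Rragd*, a Rag GTPase, by 0.23 (limma, adjusted p = 0.00826), while *Rragb*, another Rag GTPase, fell by 0.46 (limma, adjusted p = 2.21e-04) and *Lamtor2*, a subunit of the Ragulator, by 0.24 (limma, adjusted p = 0.0201).

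Cathepsins are inhibited by cystatins, and granule proteases that reach the cytosol by intracellular serpins. Of 7 tested cystatins and serpins, 5 rose, 1 fell and 1 was not called, with a median of 0.14. That is 85.71% called, 71.43% higher and 14.29% lower, against 66.2%, 30.9% and 35.3% of all tested genes. *Serpinb6b*, an intracellular serpin, went from 205 ± 11.0 to 379 ± 5.75 FPKM (0.89, limma, adjusted p = 1.46e-08). *Cst3* (cystatin C), a secreted inhibitor, fell from 74.5 ± 1.77 to 61.8 ± 1.90 FPKM (-0.27, limma, adjusted p = 1.75e-05). *Serpinb1a*, counted among the 5, was at 0.209 to 0.504 FPKM with DMSO and at 1.33 to 1.76 FPKM with DADA, a log2 change of 0.93. It passed the filter only through its DADA libraries, so no p-value is given and its call is not read as a result. The shares and the median of this list include *Serpinb1a*. *Cst7*, the cystatin F that inhibits cathepsin C in cytotoxic cells, was not called, at 57.0 ± 2.15 and 55.9 ± 2.52 FPKM (-0.03, 95% interval -0.11 to 0.06). Its ratio to *Ctsc* was 1.26 to 1.44 with DMSO and 1.41 to 1.64 with DADA, and these ranges overlapped. Of the other cathepsins, *Ctse* was not called, at a log2 change of -0.13 (limma, adjusted p = 0.120), *Ctso* was not called either, at -0.04 (limma, adjusted p = 0.477), and *Ctsk* was under the filter, with its highest value at 0.151 FPKM. *Ctsf*, also under the filter, was at 0.111, 0.156, 0 and 0 FPKM with DMSO and at 0.697, 0.490, 0.582 and 0.530 FPKM with DADA, groups that did not overlap (exact permutation p = 0.0286). *Ctso* and *Ctsf* were named after their values were seen.

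Of 11 tested cytotoxic granule genes, 9 rose, 1 fell and 1 was not called, with a median of 0.62. That is 90.91% called, 81.82% higher and 9.091% lower, against 66.2%, 30.9% and 35.3% of all tested genes. *Prf1* (perforin) went from 25.1 ± 0.978 to 163 ± 4.50 FPKM (2.66, limma, adjusted p = 4.07e-12). *Gzma* (granzyme A), counted among the 9, was near the filter with DMSO, at 0.781 to 2.36 FPKM, against 10.7 to 11.7 FPKM with DADA, a log2 change of 2.38. *Gzma* passed the filter only through its DADA libraries, so no p-value is given and its call is not read as a result. The shares and the median of this list include it. *Unc13d*, which primes granules for fusion, fell by 0.12 (limma, adjusted p = 0.0135), a call that was lost when every library was set to the same total. *Gzmb* (granzyme B), picked after its values were seen, went from 2946 ± 69.3 to 6837 ± 82.1 FPKM (1.21, limma, adjusted p = 1.03e-10). The transcript ratio of *Gzmb* to the enzyme that activates it was 66.1 to 74.0 with DMSO and 172 to 193 with DADA, and that of *Prf1* to *Ctsc* was 0.544 to 0.626 and 4.19 to 4.67. Beside these changes, 7 of the 8 CD8+ T cell markers were higher and 1 lower with DADA, or 87.5% and 12.5%, against 30.9% and 35.3% of all tested genes. Among those called higher, *Cd3g* had overlapping groups and a log2 change of 0.08 (limma, adjusted p = 0.0376, exact permutation p = 0.0857). Whether the lysosomal changes followed these shifts in T cell transcripts was not tested.

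Exons of some lysosomal genes overlap another gene in the annotation, and the reads of a pair on opposite strands cannot be told apart without strand. *Ctsb* shares 12.8% of its exon bases with *Fdft1* on the opposite strand, which was at 40.9 to 42.1 FPKM with DMSO and 43.6 to 45.4 FPKM with DADA. *Ppt1* shares 3.51% with *Cap1*, which was at 142 to 148 FPKM and 135 to 139 FPKM, the opposite direction to *Ppt1*. *Ctsl* shares 26.8% with the antisense gene *Gm47123*, which has no values here, and *Ctsd* shares 34.4% with *Gm49369* on the same strand, a pair that strand does not separate and in which *Gm49369* was listed at 0 in all libraries. The partners of *Ctsa*, *Pltp* and *Neurl2*, reached at most 1.55 FPKM.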

How the data were processed

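Per the labels, mRNA libraries were made from total RNA, and the authors deposited their expression levels as FPKM. The submitters' processing notes name CASAVA 1.8.2, FastQC 0.11.9, HISAT2 2.0.5, StringTie 1.3.3, Picard 1.41 and SAMtools 0.1.18, and the builds GRCm39 and GRCh38, without roles, so no gene coordinates of the files are given. The labels and the study's methods name different library kits, and whether counting used strand is not given in the sources used here. Libraries were grouped by their titles. The labels name no batch, and p-values measure the spread between 4 cultures per group, described as biological replicates.

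Deposited FPKM were used as they are. Genes with at least 1 FPKM in at least 4 of 8 libraries were tested as log2(FPKM + 1) in limma 3.58.1 (R 4.3.3) with 1 term for DADA, using lmFit, eBayes with trend, and p-values adjusted by Benjamini-Hochberg. Single values were tested with two-sided exact permutation tests. Simulated over 10666 genes for DADA against DMSO, this fit recovered 72% of genes changed by 0.25 on the log2 scale, 96% at 0.5, 100% at 1 and 96% at 2, and 6 of its 188 calls were false. Depth was estimated from the steps between low FPKM values of 4431 single-transcript genes of GENCODE M21. Among the values that implied only a few fragments, 39.6% to 42.4% lay within 0.1 of whole fragments, where an even spread gives 20%. Each depth was chosen for closeness to 1 and 2 fragments, so this share does not test it. Depth remains an estimate, so no count test was run. The largest error of this estimate on 3 simulated libraries was 4.7%. Promoters came from RefSeq, and exon overlaps and copies from GENCODE M21 (GRCm38).

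The lysosomal genes and the other lists were chosen with earlier results of these data known. Values in every library are given for *Tfeb*, *Tfe3*, *Lamp1*, *Lamp2*, *Mcoln1*, the 6 called genes of the set with the largest rise, the 6 with the largest fall and those under the filter, and the other genes of the set get means or ranges. From each other list the 2 genes with the largest called change in each direction are named, with *Cst7*, *Ctse* and *Ctsk* added. *Galc*, *Gzmb*, *Ctso*, *Ctsf* and the single markers of other cell types were named after their values were seen. Alternatives changed the pseudocount, the filter, the scaling, the trend, a replicate block and the libraries included. Single values of some listed genes are left out here, while list counts include them.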

Additional observations from a re-analysis of the deposited data

Results flagged for a closer look

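In groups of 4 libraries, a library was singled out where its gap to the nearest other library, divided by the range of the group, was above Dixon's 95% critical value for 4 samples. Of 137 groups over 69 genes, 4 met this, where chance gives about 6.9, or 1 in 20, and none of the 65 groups of the 33 lysosomal genes was among them. *Ctsk* was listed at 0 in 3 DMSO libraries and at 0.0874 FPKM in DMSO library 4, a ratio of gap to range of 1.0. *Flcn* was at 10.3 FPKM in DADA library 4 and at 10.7 to 10.8 FPKM in the other DADA libraries, a ratio of 0.849. *Unc13d* was at 32.4 FPKM in DMSO library 4 and at 33.7 to 33.9 FPKM in the others, a ratio of 0.887. *Cd8b1* was at 146 FPKM in DMSO library 4 and at 152 to 153 FPKM in the others, a ratio of 0.838.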

How the results depend on the processing

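Of the 31 lysosomal genes tested, 25 kept their direction and their side of the threshold in all 16 alternatives, and *Tfeb*, *Ctsd*, *Ctsl*, *Glb1*, *Lipa* and *Ppt1* did not. Counts of called lysosomal genes ran from 18 to 21 higher and from 5 to 6 lower. *Tfeb* was also not called without the filter (adjusted p = 0.0632) or with the same total in every library (0.0516), and its log2 fold change ran from -0.32 to -0.16. With the same total, *Ctsl* (0.0252) and *Glb1* (0.0296) were called, *Ctsl* was called with median-ratio scaling (0.0462) and with no trend (0.0493), and *Ctsd* was called with quantile normalization (0.0107), all limma adjusted p-values. *Lipa*, not called in any fit, changed sign on the log2 scale with the same total (0.0166), without DMSO library 2 (0.0088) and without DADA library 2 (0.0036), and ran from -0.0329 to 0.0088 when 1 library was left out. The median log2 fold change of the set was 0.20 at a mean of at least 5 FPKM and 0.20 with the same total, against 0.17, and the other lysosomal membrane proteins called were 7 higher and 1 lower at a mean of at least 5 FPKM, where fewer genes are tested. With the same total, 0 cytotoxic granule genes were called lower by limma, since *Unc13d* was not, and 1 had an unadjusted p under 0.05. The cause of the other changes was not tested. Leaving out 1 library left 6723 to 6897 genes called over the table. Replicate numbers are shared by the groups, but deviations of same-numbered libraries correlated at 0.095, -0.12, -0.088 and 0.075, no DMSO library correlated best with its own number, and with a replicate block 6995 genes were called in place of 7064. No scaling moved the median of all genes by more than 0.03. With the same total, though, 3604 genes were called higher and 3380 lower over the table, against 3296 and 3768 in the main fit. For *Ctsh*, *Lgmn* and *Ctsk*, all under the filter, no difference passed the exact permutation test, and how far depth limits this was not tested.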
